A study of Rattus norvegicus with 8 samples.

Results

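The mitochondrial respiratory chain and ATP synthase were examined in rat liver through the nuclear genes of their subunits. The rule that picks the members reads gene symbols only and no measured value, although it was written with earlier results of these data known. Members are probe sets assigned to exactly 1 gene whose symbol starts with Nduf, Uqcr, Cox4, Cox5, Cox6, Cox7, Cox8 or Atp5, or is Sdha, Sdhb, Sdhc, Sdhd, Cyc1 or Cycs. The rule found 97 probe sets of 87 genes among the 31042 probe sets of the table that are not array controls. Of these 97, 44 belonged to complex I, namely 37 for subunits and 7 for Ndufaf assembly factors. A further 5 belonged to complex II, 9 to complex III, 19 to complex IV and 20 to complex V. Ndufa4 and its relative Ndufa4l2 were counted with complex IV, where the Ndufa4 protein is now placed in spite of its name. The prefix rule also took in Cox6c-ps1, a pseudogene, and Atp5if1, the inhibitor of ATP synthase. No probe set for Cycs, the gene of cytochrome c, had exactly 1 gene, and 9 probe sets that name a member together with a related gene or pseudogene stayed outside.

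Liver RNA came from male Sprague-Dawley rats aged 7 weeks, with 1 Affymetrix 3' expression array for each of 8 rats. The 4 L. brevis rats ate, for 2 weeks, CRF-1 rodent chow enriched with cholesterol (10 g per kg) and cholic acid (5 g per kg), and with 10 g per kg of the turnip isolate Lactobacillus brevis 119-2, a lactic acid bacterium given as viable freeze-dried cells. The 4 control rats ate the cholesterol and cholic acid diet alone, so both groups carry the cholesterol load. The design names 11 rats per group, of which 4 per group have an array here. For the control arrays one label names only CRF-1 as the diet, and the series' design text, which names the cholesterol and cholic acid version, was followed here. Each value is a log2 signal of a probe set as the authors deposited it, and each difference is L. brevis minus control on that log2 scale.

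Oxidative phosphorylation passes electrons from NADH through complex I, or from succinate through complex II, to ubiquinone. Complex III hands them to cytochrome c and complex IV to oxygen. Complexes I, III and IV pump protons out of the mitochondrial matrix, and the proton gradient drives complex V, the ATP synthase. In hepatocytes this chain supplies the ATP for gluconeogenesis, urea synthesis and secretion, and it reoxidises the carriers reduced by fatty acid oxidation. Complex II differs from the others in that all 4 of its subunits are nuclear genes and in that it is also an enzyme of the tricarboxylic acid cycle. The subunits encoded by mitochondrial DNA were not analysed here.

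A feature of the deposited table limits what can be seen. Many probe sets hold a single value on all 8 arrays, which says nothing about whether the rats differed. A probe set whose range over the 8 arrays exceeded 0.01 log2 is called varying below. By this limit 43 of the 97 member probe sets varied (44.3%), from 42 genes, against 6323 of all 31042 (20.4%). The smallest range of a varying member was 0.082 log2 (Ndufa1) and the largest range of a flat one was 9.30e-07. Among probe sets with a mean above 9 log2, 38 of 69 members varied (55.1%), against 70.4% of all 2705. Complex I had 19 varying subunit probe sets and 1 varying assembly factor, complex II had 4, complex III had 5, complex IV had 8 and complex V had 6.

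The flat members include some of the best known subunits. Atp5f1b, the catalytic beta subunit of ATP synthase, held 12.44 on every array, and Atp5mc3, a c-ring subunit, held 12.44. Cox4i1, a nuclear subunit of cytochrome c oxidase, held 11.36. Cyc1, the cytochrome c1 of complex III, was flat at 10.45, and Ndufv1, which binds NADH in complex I, at 9.97. In all, 45 member genes had no varying probe set, and for them no difference between the diets could be measured. Atp5if1 was among them, with 3 flat probe sets at 8.28, 6.83 and 6.49.

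Hepatocyte genes were present at like levels in both groups, with 9 of 10 markers measured and a summed level between 16.53 and 16.62 log2 in L. brevis livers and between 16.55 and 16.60 in control livers. Skeletal muscle markers, of which 19 of 20 were measured and 13 varied, all 13 with a positive difference, stood apart in 1 rat. Their summed level was 13.66 in L. brevis 2, against 11.61 to 11.79 in L. brevis rats 1, 3 and 4, and in control rats it was 11.38 to 11.92. Erythroid markers, of which 4 of 6 were measured, 3 varied and 3 had a positive difference, had a summed level of 11.43, 14.36, 12.53 and 12.65 in L. brevis rats 1 to 4, against 11.81, 13.02, 11.90 and 12.80 in control rats 1 to 4, so that L. brevis 1 and controls 1 and 3 were lowest, and their part in the results was not tested. Macrophage markers, of which 8 of 10 were measured and 7 varied, had 6 positive differences and 1 negative one. Their summed level was 12.26 to 12.59 in L. brevis livers and 12.15 to 12.55 in control livers. By unadjusted p (limma), at a limit of 0.05, 2 of the 7 were higher and 0 were lower, against 10.7% and 13.8% of all varying probe sets. These 2, named after their values were seen, were Adgre1, a surface receptor of macrophages, at +0.65 (SE 0.16, limma adjusted p = 0.125) with every L. brevis rat above every control, and C1qb, a complement chain, at +0.73 (SE 0.26, adjusted p = 0.163), and their part in the results was not tested. A further measure varied from array to array, the signal of the 5' end of the GAPDH control transcript minus that of its 3' end, which reflects how complete the labelled RNA was. It was -2.20, -1.30, -0.94 and -0.68 log2 in L. brevis rats 1 to 4, against -2.89, -1.83, -2.93 and -1.98 in control rats 1 to 4. L. brevis 2 to 4 lay above every control, L. brevis 1 lay below controls 2 and 4, and controls 1 and 3 were lowest. The same quantity for beta-actin was -3.50, -2.48, -2.59 and -1.86 in the L. brevis rats, against -3.89, -3.00, -3.69 and -3.31 in the control rats. In bulk RNA, fewer cells of a type and less RNA per cell cannot be told apart.

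No member passed the adjusted threshold of 0.05 between the diets (limma over the 6323 varying probe sets, two-sided, Benjamini-Hochberg adjustment). The count was 0 of 43 higher and 0 of 43 lower, beside 0% of all varying probe sets higher and 0.0633% lower, and the smallest adjusted p of a member was 0.116 (Atp5pb). At an unadjusted p under 0.05, 12 of 43 member probe sets were higher in L. brevis livers (27.9%) and 2 lower (4.65%), against 10.7% higher and 13.8% lower among all varying probe sets. Regardless of p, 30 members had a positive difference and 13 a negative one, with a median of 0.09, while the median of all varying probe sets was -0.02. Under quantile normalization the split was 24 and 19, with medians of 0.0095 for members and -0.03 for all. A fit with the GAPDH signal described above as a covariate gave 27 and 16, with medians of 0.03 and -0.01. The diets did not overlap in 5 members, all with the L. brevis rats above (11.6%, against 4.21% of all varying probe sets), and in 0 with the L. brevis rats below (against 7.09%).

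These counts moved with the rat that was left out. Without L. brevis 1, 10 members passed the adjusted threshold as higher and 2 as lower (limma), when 8.57% of all varying probe sets were called higher and 9.55% lower. When any other single rat was left out, 0 members passed in either direction. With array weights, which gave L. brevis 1 the smallest weight (0.32) and L. brevis 3 the largest (3.36), 13 passed as higher and 4 as lower, beside 12.0% and 12.7% of all. At an unadjusted p under 0.05 the number of higher members was 6 (14.0%) without L. brevis 3, without L. brevis 4 or without control 1, when 6.01%, 6.42% and 6.63% of all varying probe sets were higher. It was 16 (37.2%, against 9.20%) without control 2 and 13 (30.2%, against 16.4%) without L. brevis 1. The number of lower members was 7 (16.3%, against 20.6% of all) without L. brevis 1 and 4 (9.30%, against 14.7%) without control 4. It was 1 (2.33%) without L. brevis 2, L. brevis 4, control 2 or control 3, when 9.33%, 9.03%, 10.9% and 9.71% of all were lower. The counts over all probe sets moved with the left-out rat as well.

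**Figure D1:**
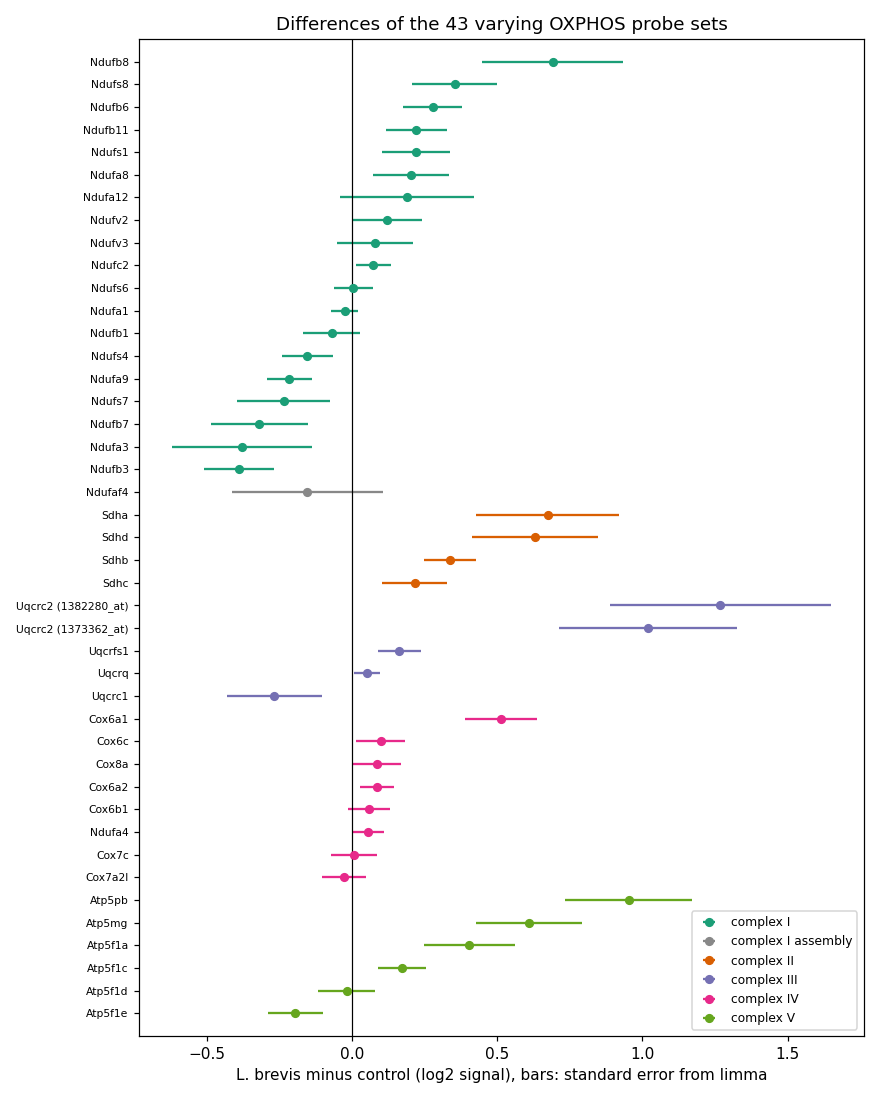
Differences in log2 signal, L. brevis minus control (x axis), for the 43 varying probe sets of oxidative phosphorylation genes (y axis), coloured by complex, with points for the fitted difference and bars for its standard error (n = 4 rats per diet). All 4 complex II probe sets lie to the right of 0, between 0.22 and 0.67, whereas complex I spreads from -0.39 to 0.69.

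The 12 higher probe sets, of 11 genes, were ordered alike over the rats. They were picked by their difference on these same arrays, so L. brevis rats above controls follow in part from the pick. How many of all varying probe sets share this order was not counted. In all 12, L. brevis 2, 3 and 4 lay above every control, L. brevis 1 was the lowest L. brevis rat, and the lowest control was control 1 or control 3. L. brevis 1 lay inside the control range in 8 of them and above it in 4. Leaving out L. brevis 1 therefore raised all 12 differences by construction, to a median of 0.77 against 0.62. The adjusted p values given below for fits without L. brevis 1 follow in part from its position and are descriptions. The arrays with the highest signal of these subunits, L. brevis 2 to 4, were those with the highest GAPDH 5' minus 3' signal. The single lowest array of each subunit was control 1 or control 3, the 2 arrays lowest in GAPDH signal. When that GAPDH signal entered the fit as a covariate, all 12 differences stayed positive and all 12 were smaller, with a median of 0.13 against 0.62. The GAPDH signal differed between the diets too, so the covariate and the diet cannot be fully told apart. In that fit 1 member was higher and 0 were lower by unadjusted p, beside 3.50% and 4.37% of all varying probe sets, and 17 of the 43 members changed sign. With the beta-actin signal in its place, 2 members were higher and 0 lower, beside 3.92% and 4.93%. Between the 4 arrays in the middle of the GAPDH range, L. brevis 1 and 2 against control 2 and 4, the 12 differences had a median of 0.19. That split leaves out the 2 highest L. brevis arrays and the 2 lowest control arrays by GAPDH signal, which among these 12 are mostly the extreme values too, so smaller differences follow from its construction and it is given as a description. The part of the GAPDH signal in these differences was not tested further.

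**Figure D2:**
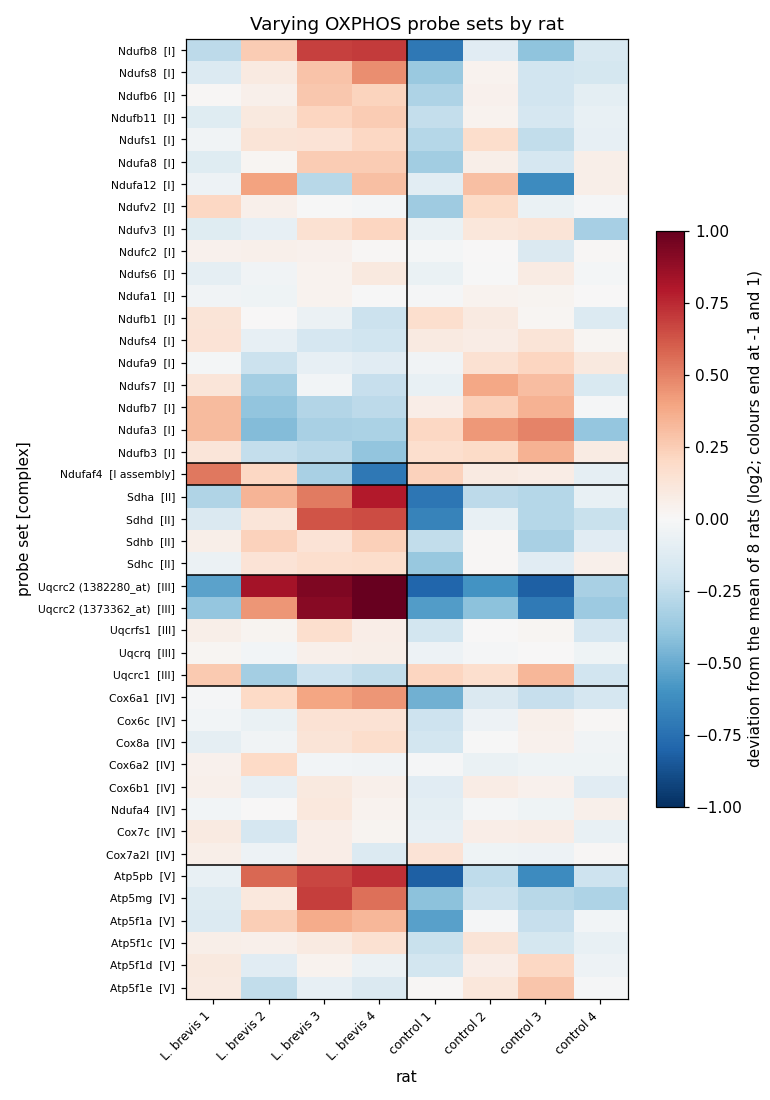
Deviation of each rat's log2 signal from the mean of the 8 rats (colour, blue low and red high, ending at -1 and 1) for the 43 varying probe sets (rows, ordered by complex and then by difference) in 4 L. brevis rats and 4 control rats (columns). Uqcrc2, Atp5pb, Sdha, Sdhd and Ndufb8 are red in L. brevis 2 to 4 and blue in control 1, and L. brevis 1 is on the blue side for each of them.

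Complex I is the entry point for electrons from NADH and the largest complex of the chain. Of its 19 varying subunit probe sets 11 had a positive and 8 a negative difference, with a median of 0.07. By unadjusted p, at the same limit of 0.05 here and below, 3 were higher (15.8%) and 2 lower (10.5%), and 0 were called after adjustment. Both shares are near the 10.7% higher and 13.8% lower of all varying probe sets. Ndufb8, an accessory subunit of the membrane arm, had 7.35, 7.87, 8.30 and 8.32 in L. brevis rats 1 to 4, against 6.90, 7.50, 7.22 and 7.45 in control rats 1 to 4. L. brevis 2 to 4 were above all controls, and L. brevis 1 was inside their range. The group means were 7.96 ± 0.45 in L. brevis and 7.27 ± 0.27 in control livers (SD, n = 4 each), a difference of +0.69 (SE 0.24, adjusted p = 0.162), which was +0.06 with the GAPDH covariate and +0.89 without L. brevis 1 (adjusted p = 0.0297). Ndufb6, another membrane arm subunit, had 10.21, 10.25, 10.47 and 10.42 in L. brevis rats 1 to 4, against 9.89, 10.24, 10.01 and 10.10 in control rats 1 to 4. Its difference was +0.28 (SE 0.10, adjusted p = 0.168), or +0.06 with the GAPDH covariate. Control 2 lay above L. brevis 1 and just below L. brevis 2. Ndufs8, a subunit that carries iron-sulfur clusters towards the ubiquinone site and which was named after its values were seen, had 9.23, 9.46, 9.66 and 9.83 in L. brevis rats 1 to 4, against 9.002, 9.40, 9.17 and 9.19 in control rats 1 to 4, a difference of +0.35 (SE 0.15, adjusted p = 0.200). Control 2 lay above L. brevis 1, and L. brevis 2 to 4 lay above all controls.

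Other complex I subunits pointed the opposite way. Ndufb3, a small subunit of the membrane arm, had 11.44, 11.07, 11.04 and 10.92 in L. brevis rats 1 to 4, against 11.48, 11.50, 11.66 and 11.39 in control rats 1 to 4. L. brevis 2 to 4 lay below every control, and L. brevis 1 stood among the controls. Its difference was -0.39 (SE 0.12, adjusted p = 0.143), 1.31-fold lower on the linear scale, and it was -0.50 without L. brevis 1 (adjusted p = 0.0239) and -0.12 with the GAPDH covariate. Ndufa9, near the junction of the arms of the complex, had 10.08, 9.89, 10.02 and 9.99 in L. brevis rats 1 to 4, against 10.07, 10.26, 10.32 and 10.21 in control rats 1 to 4. L. brevis 1 lay just above control 1 and the other L. brevis rats below all controls. The difference was -0.22 (SE 0.08, adjusted p = 0.167), and -0.20 with the GAPDH covariate, so that it moved less than that of Ndufb8. Its second probe set was flat at 5.89. Of the 13 members of all complexes with a negative difference, L. brevis 1 was the highest L. brevis rat in 11. Leaving it out made those differences more negative by construction. The remaining 14 complex I subunits had differences between -0.38 (Ndufa3) and +0.22 (Ndufb11), and all had an unadjusted p above 0.05. Ndufs6, Ndufa1 and Ndufb1 were close to 0 at 0.0048, -0.03 and -0.07.

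Of the assembly factors of complex I, which guide the building of the complex and are not part of it, only Ndufaf4 varied among 6 genes measured. It had 9.12, 8.80, 8.27 and 7.88 in L. brevis rats 1 to 4, against 8.83, 8.69, 8.68 and 8.51 in control rats 1 to 4. The L. brevis rats spanned more than the controls (SD 0.55 against 0.13), with L. brevis 1 above and L. brevis 3 and 4 below all controls. The difference of -0.15 (SE 0.26, adjusted p = 0.744) was +0.40 with the GAPDH covariate and +0.06 without L. brevis 4, so no direction can be given.

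Complex II, succinate dehydrogenase, had the highest median difference of the complexes, 0.48 over its 4 varying probe sets, 1 for each subunit. With the GAPDH covariate its median was 0.098 and that of complex III was 0.14, so the order does not hold in that fit. All 4 differences were positive and 3 had an unadjusted p under 0.05 (75.0%, against 10.7% of all varying probe sets), but 0 passed the adjusted threshold. The mean over the 4 subunits was 10.44, 10.76, 10.92 and 11.02 in L. brevis rats 1 to 4, against 10.05, 10.47, 10.30 and 10.46 in control rats 1 to 4, so that L. brevis 1 lay below controls 2 and 4. That mean followed the GAPDH signal of the arrays in setting L. brevis 2 to 4 above the rest and control 1 and 3 lowest.

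Sdha, the flavoprotein that oxidises succinate, had 10.09, 10.73, 10.91 and 11.18 in L. brevis rats 1 to 4, against 9.67, 10.12, 10.10 and 10.31 in control rats 1 to 4. L. brevis 1 stood inside the control range and the other L. brevis rats above it. The group means were 10.73 ± 0.46 in L. brevis and 10.05 ± 0.27 in control livers (SD, n = 4 each), 1.60-fold higher, and the difference was +0.67 (SE 0.25, adjusted p = 0.168), or +0.89 without L. brevis 1 (adjusted p = 0.0287). Sdhb, the iron-sulfur subunit that takes the electrons from Sdha, had 11.23, 11.40, 11.31 and 11.41 in L. brevis rats 1 to 4, against 10.92, 11.18, 10.84 and 11.05 in control rats 1 to 4. Here the diets did not overlap, and the difference was +0.34 (SE 0.09, adjusted p = 0.133). With the GAPDH covariate Sdha stood at +0.08 and Sdhb at +0.15.

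Sdhc and Sdhd are the membrane anchors that hold the ubiquinone site. Sdhc had 10.83, 11.03, 11.06 and 11.07 in L. brevis rats 1 to 4, against 10.51, 10.91, 10.78 and 10.94 in control rats 1 to 4. Controls 2 and 4 lay above L. brevis 1, and the difference was +0.22 (SE 0.11, adjusted p = 0.264), or -0.02 with the GAPDH covariate. Sdhd had 9.61, 9.87, 10.39 and 10.41 in L. brevis rats 1 to 4, against 9.08, 9.68, 9.47 and 9.53 in control rats 1 to 4. Its difference was +0.63 (SE 0.22, adjusted p = 0.159), +0.78 without L. brevis 1 (adjusted p = 0.0413) and +0.11 with the GAPDH covariate. A second, brighter probe set of Sdhd was flat at 11.34 on all arrays, so the gene's difference rests on 1 of 2 probe sets. Between L. brevis 1 and 2 and control 2 and 4 the differences were +0.19 for Sdha, +0.20 for Sdhb, +0.14 for Sdhd and +0.01 for Sdhc.

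**Figure D3:**
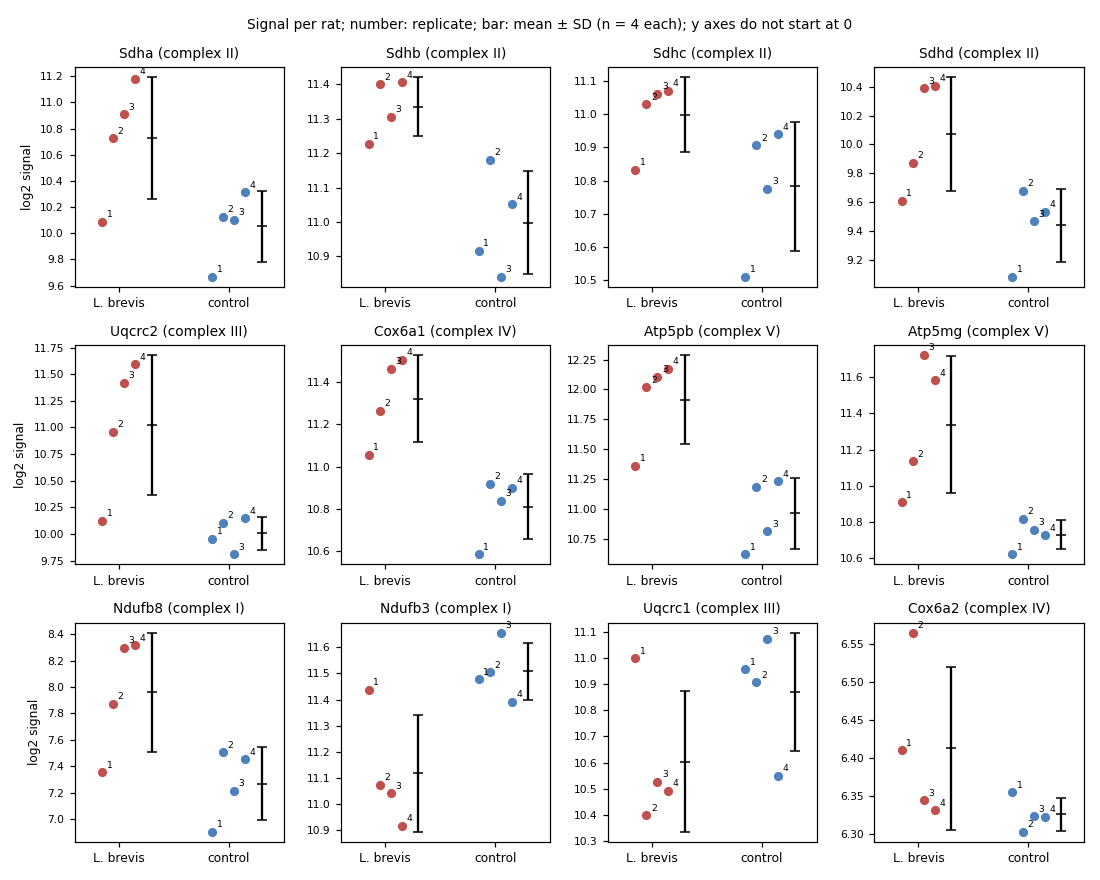
Log2 signal (y axis, not starting at 0) of 12 probe sets in each of 4 L. brevis rats (left, red) and 4 control rats (right, blue), with replicate numbers at the points and the mean ± SD beside them (n = 4 each). For Sdhb, Cox6a1, Atp5pb and Atp5mg every L. brevis rat lies above every control, while for Sdha, Sdhd, Uqcrc2 and Ndufb8 L. brevis 1 lies within the control range and for Ndufb3 only L. brevis 1 reaches it.

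The upstream sequence of the 4 complex II genes, which had differences of 1 sign, and of Uqcrc2, which had the largest difference of any member, was read for motifs of factors known to act on respiratory genes. The windows are the 250 bases before the annotated start in RefSeq (GRCr8), printed 5′ to 3′ on the gene's strand. Capitals mark matches to the core of the NRF1 motif, which is GCGCA and GCGC with any 1 base between them, to CCGGAAG, bound by ETS factors such as GABP, or to AANATGGC, a YY1 motif, on either strand. The window of Sdha lies at chr1:30764303-30764552 (+), Sdhb at chr5:158547684-158547933 (+), Sdhc at chr13:86098026-86098275 (-), Sdhd at chr8:59850642-59850891 (-) and Uqcrc2 at chr1:184598990-184599239 (+).
Sdha: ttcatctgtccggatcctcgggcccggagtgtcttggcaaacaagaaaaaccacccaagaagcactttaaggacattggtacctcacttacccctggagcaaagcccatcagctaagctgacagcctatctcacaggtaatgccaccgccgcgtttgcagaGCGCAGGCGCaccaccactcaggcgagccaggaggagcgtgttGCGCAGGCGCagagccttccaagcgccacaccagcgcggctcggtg
Sdhb: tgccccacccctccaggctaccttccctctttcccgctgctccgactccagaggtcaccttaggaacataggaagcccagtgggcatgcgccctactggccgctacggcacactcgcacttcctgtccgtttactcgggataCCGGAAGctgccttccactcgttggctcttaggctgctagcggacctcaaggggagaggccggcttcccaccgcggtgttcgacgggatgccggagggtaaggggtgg
Sdhc: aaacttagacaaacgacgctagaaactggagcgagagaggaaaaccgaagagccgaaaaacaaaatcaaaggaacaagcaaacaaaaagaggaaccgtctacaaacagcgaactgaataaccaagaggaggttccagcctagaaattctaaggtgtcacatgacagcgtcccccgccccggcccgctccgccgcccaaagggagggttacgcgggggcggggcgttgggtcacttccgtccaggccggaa
Sdhd: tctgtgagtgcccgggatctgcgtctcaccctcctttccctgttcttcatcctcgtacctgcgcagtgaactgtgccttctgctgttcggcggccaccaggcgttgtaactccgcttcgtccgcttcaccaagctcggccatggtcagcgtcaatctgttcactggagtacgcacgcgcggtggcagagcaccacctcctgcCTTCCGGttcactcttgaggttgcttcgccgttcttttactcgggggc
Uqcrc2: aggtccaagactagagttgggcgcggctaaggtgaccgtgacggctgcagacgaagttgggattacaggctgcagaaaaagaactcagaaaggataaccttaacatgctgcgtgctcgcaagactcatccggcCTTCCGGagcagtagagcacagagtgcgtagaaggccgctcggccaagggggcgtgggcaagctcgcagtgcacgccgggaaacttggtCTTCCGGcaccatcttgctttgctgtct
Sdha held 2 NRF1 matches, Sdhb 1 ETS match, Sdhd 1 ETS match and Uqcrc2 2 ETS matches, and Sdhc held none of the 3 motifs in this window. Windows were found for 78 of the 87 member genes. The NRF1 letters were in 12 of them (15.4%), against 3.75% of all 33469 windows of the table. Those 33469 were not cut to 1 window per gene or to genes on the array, as the member windows were, so the sets are unlike. The ETS letters were in 21 (26.9%, against 7.27%) and the YY1 letters in 10 (12.8%, against 4.23%). In 6 member windows ETS and YY1 letters occurred together, in 0 with shared letters. A match is a description of the letters and shows neither binding nor a cause.

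Complex III, which passes electrons from ubiquinol to cytochrome c, had 5 varying probe sets of 4 genes, 4 with a positive and 1 with a negative difference and a median of 0.16. By unadjusted p there were 2 higher probe sets (40.0%), both for Uqcrc2, and 0 lower ones, beside 10.7% and 13.8% of all varying probe sets. Uqcrc2 encodes a core protein of the matrix side, and its brighter probe set had 10.12, 10.96, 11.42 and 11.59 in L. brevis rats 1 to 4, against 9.96, 10.11, 9.81 and 10.15 in control rats 1 to 4. The other had 6.28, 7.65, 7.75 and 8.13 in L. brevis rats 1 to 4, against 6.02, 6.22, 5.996 and 6.49 in control rats 1 to 4. Both probe sets show L. brevis 1 with the controls and L. brevis 2 to 4 well above them. The differences were +1.02 (SE 0.31, adjusted p = 0.139), 2.03-fold higher, and +1.27 (SE 0.38, adjusted p = 0.137), 2.41-fold higher. Without L. brevis 1 they were +1.32 (adjusted p = 0.0222) and +1.66 (adjusted p = 0.0140), and for the brighter one the difference was +0.27 with the GAPDH covariate (adjusted p = 0.819) and +0.41 between the 4 arrays in the middle of the GAPDH range.

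Uqcrc1, the partner of Uqcrc2 in the core of the complex, did not share this pattern. It had 11.00, 10.40, 10.53 and 10.49 in L. brevis rats 1 to 4, against 10.96, 10.91, 11.07 and 10.55 in control rats 1 to 4. L. brevis 1 was among the controls, L. brevis 2 to 4 lay below every control, and the difference was -0.27 (SE 0.16, adjusted p = 0.337), or +0.08 with the GAPDH covariate. Uqcrfs1, the Rieske iron-sulfur protein, had 10.99, 10.96, 11.10 and 11.00 in L. brevis rats 1 to 4, against 10.74, 10.93, 10.95 and 10.76 in control rats 1 to 4. Its 4 L. brevis values lay above the 4 control values by a narrow margin, and the difference was +0.16 (SE 0.07, adjusted p = 0.218). With the GAPDH covariate it was +0.14. Uqcrq, a small subunit, differed by +0.05, and Uqcrh, Uqcr10, Uqcr11 and Cyc1 were flat between 10.45 and 10.91.

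Complex IV, cytochrome c oxidase, reduces oxygen to water. Its 8 varying probe sets had 7 positive differences and 1 negative one, with a median of 0.07. By unadjusted p 1 probe set was higher (12.5%, near the 10.7% of all varying probe sets) and 0 were lower (against 13.8%). Cox6a1, the general isoform of subunit VIa, had 11.05, 11.26, 11.46 and 11.51 in L. brevis rats 1 to 4, against 10.58, 10.92, 10.84 and 10.90 in control rats 1 to 4. The diets did not overlap, with group means of 11.32 ± 0.21 in L. brevis and 10.81 ± 0.15 in control livers (SD, n = 4 each), 1.43-fold higher. The difference was +0.51 (SE 0.12, adjusted p = 0.125), +0.60 without L. brevis 1 (adjusted p = 0.0242), +0.22 with the GAPDH covariate and +0.25 between the 4 arrays in the middle of its range.

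The other varying complex IV members differed little. Cox6c, Cox8a, Cox6b1, Ndufa4 and Cox7c, all structural subunits, had differences of +0.10, +0.09, +0.06, +0.05 and 0.0068, each smaller than 2 standard errors. Cox7a2l, which takes part in joining complexes III and IV, stood at -0.03. Under quantile normalization Ndufa4 was -0.04 and Cox6b1 -0.04, so neither has a direction here, and neither have Cox8a and Cox7a2l, which changed sign under the GAPDH covariate (-0.05 and +0.05).

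Several complex IV subunits have a second isoform made in muscle, brown fat or other tissues, and these were at the low end of the table. Cox6a2, the heart and muscle form of subunit VIa, had 6.41, 6.57, 6.34 and 6.33 in L. brevis rats 1 to 4, against 6.36, 6.30, 6.32 and 6.32 in control rats 1 to 4. L. brevis 2, the rat with high skeletal muscle markers, had the highest value of the 8. Without that rat the difference of +0.09 (SE 0.06, adjusted p = 0.373) became +0.04. The other tissue forms, Cox7a1, Cox8b, Cox4i2, Cox6b2, Cox7b2 and Ndufa4l2, were flat between 6.13 and 6.44. For them no difference between rats, L. brevis 2 included, could be measured.

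Complex V, the ATP synthase, had 6 varying probe sets of 6 genes, 4 positive and 2 negative, with a median of 0.29. By unadjusted p 3 of these 6 were higher and 0 lower, beside 10.7% and 13.8% of all varying probe sets. Atp5pb, subunit b of the stator that holds the catalytic head in place, had 11.36, 12.02, 12.11 and 12.17 in L. brevis rats 1 to 4, against 10.62, 11.19, 10.81 and 11.23 in control rats 1 to 4. Every L. brevis rat lay above every control. The means were 11.91 ± 0.37 in L. brevis and 10.96 ± 0.30 in control livers (SD, n = 4 each), 1.94-fold higher, and the difference was +0.95 (SE 0.22, adjusted p = 0.116). It was +1.14 without L. brevis 1 (adjusted p = 0.0222), +0.37 with the GAPDH covariate, where no other member had an unadjusted p under 0.05 (its adjusted p = 0.537), and +0.48 between the 4 arrays in the middle of the GAPDH range.

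Atp5mg, subunit g of the membrane part, had 10.91, 11.13, 11.72 and 11.58 in L. brevis rats 1 to 4, against 10.62, 10.82, 10.75 and 10.72 in control rats 1 to 4. The diets again did not overlap, although L. brevis 1 lay close to control 2. The difference was +0.61 (SE 0.18, adjusted p = 0.136), +0.75 without L. brevis 1 (adjusted p = 0.0269) and +0.24 with the GAPDH covariate. Atp5f1a, the alpha subunit of the catalytic head, named after its values were seen, had 11.34, 11.73, 11.85 and 11.81 in L. brevis rats 1 to 4, against 10.94, 11.47, 11.25 and 11.46 in control rats 1 to 4. Controls 2 and 4 lay above L. brevis 1, and the difference was +0.40 (SE 0.16, adjusted p = 0.179), or +0.02 with the GAPDH covariate. The remaining head and stalk subunits were Atp5f1c at +0.17, Atp5f1e at -0.20 (SE 0.10, adjusted p = 0.243) and Atp5f1d at -0.02, the last of which changed sign under median centring (+0.02).

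**Figure D4:**
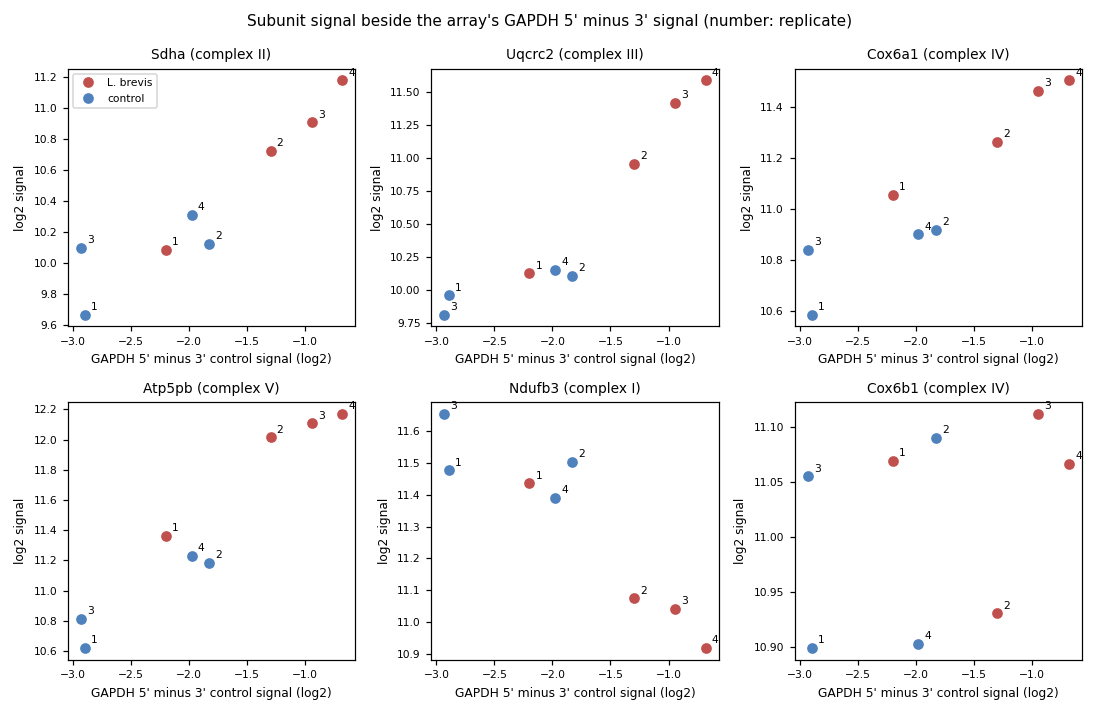
Log2 signal (y axes) of Sdha, Uqcrc2, Cox6a1, Atp5pb, Ndufb3 and Cox6b1 in 4 L. brevis rats (red) and 4 control rats (blue) against the GAPDH 5' minus 3' control signal of the same array (x axes, log2), with replicate numbers at the points. L. brevis 2 to 4 lie at the right end (-1.30 to -0.68) with the highest Sdha, Uqcrc2, Cox6a1 and Atp5pb and the lowest Ndufb3, and L. brevis 1 (-2.20) lies on the x axis close to control 2 and 4, whereas Cox6b1 is spread without such an order.

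Genes that feed electrons into the chain come next. Of 15 measured genes of the tricarboxylic acid cycle and pyruvate dehydrogenase 8 varied, 5 with a positive and 3 with a negative difference (median 0.14). By unadjusted p 4 were higher and 0 lower, beside 10.7% and 13.8% of all varying probe sets, and 0 passed the adjusted threshold (limma). Suclg2, a subunit of the succinyl-CoA ligase that makes the succinate used by complex II, had 11.08, 11.70, 11.72 and 11.75 in L. brevis rats 1 to 4, against 10.66, 10.90, 10.86 and 10.94 in control rats 1 to 4. Its difference was +0.72 (SE 0.16, adjusted p = 0.116), +0.88 without L. brevis 1 (adjusted p = 0.0117) and +0.35 with the GAPDH covariate. The other 3, named after their values were seen, were Dld, the shared lipoamide dehydrogenase, at +0.72 (+0.05 with the covariate), Pdha1 at +0.49 (+0.02) and Pdhb at +0.22 (+0.07), both of pyruvate dehydrogenase. Dlst, of the 2-oxoglutarate dehydrogenase complex, stood at -0.14 (SE 0.07, adjusted p = 0.291).

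Of 11 other genes of electron entry and uncoupling 8 varied, 6 positive and 2 negative (median 0.18). By unadjusted p 3 were higher and 0 lower, beside 10.7% and 13.8% of all varying probe sets, with 0 called after adjustment. Etfdh, which carries electrons from fatty acid oxidation to ubiquinone, had 10.78, 10.85, 11.06 and 10.90 in L. brevis rats 1 to 4, against 9.70, 10.62, 10.26 and 10.23 in control rats 1 to 4. The diets did not overlap, and the difference was +0.69 (SE 0.19, adjusted p = 0.133), or +0.39 with the GAPDH covariate. Etfa, its electron donor, differed by +0.15 and Hccs, which attaches haem to cytochrome c, by +0.21, both named after their values were seen. Gpd2, the mitochondrial glycerol phosphate dehydrogenase, had the lowest unadjusted p of the negative ones, at -0.21 (SE 0.10, adjusted p = 0.224).

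Assembly factors of complexes II to V had 29 genes measured and 12 varying, 4 positive and 8 negative (median -0.07). By unadjusted p 1 was higher and 1 lower, beside 10.7% and 13.8% of all varying probe sets, with 0 called after adjustment. Coa5, needed for complex IV assembly, had 9.50, 10.05, 10.07 and 9.98 in L. brevis rats 1 to 4, against 9.17, 9.34, 9.31 and 9.48 in control rats 1 to 4, a difference of +0.57 (SE 0.14, adjusted p = 0.125). Cox17, a copper chaperone of complex IV, had 9.35, 9.06, 8.91 and 8.78 in L. brevis rats 1 to 4, against 9.62, 9.59, 9.57 and 9.19 in control rats 1 to 4, a difference of -0.47 (SE 0.15, adjusted p = 0.153). With the GAPDH covariate they were +0.27 and -0.15. Among regulators of mitochondrial biogenesis 15 were measured and 6 varied, 1 positive and 5 negative (median -0.15). By unadjusted p 1 was higher and 0 lower, beside the same 10.7% and 13.8% of all, with 0 called after adjustment. Gabpa, the DNA-binding subunit of the ETS factor GABP, had 8.10, 8.46, 8.14 and 8.25 in L. brevis rats 1 to 4, against 8.08, 8.04, 7.65 and 7.95 in control rats 1 to 4, a difference of +0.31 (SE 0.13, adjusted p = 0.192), or +0.19 with the GAPDH covariate. Polrmt, the mitochondrial RNA polymerase, stood at -0.13 (SE 0.08, adjusted p = 0.366). Nrf1, Tfam, Yy1 and Esrra were flat.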

How the data were processed

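Liver RNA of 8 rats (4 per diet) was labelled with a 3' IVT kit and hybridised to Affymetrix arrays, 1 per rat, per the labels' protocols. The values analysed are log2 signals per probe set, as the authors deposited them. The sources used here do not state how the signals were summarised and normalized, or why most probe sets hold 1 value on all arrays. Precision is limited by the number of arrays. Samples are called biological replicates in the labels.

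Of 31099 probe sets, 57 array controls were left out. Symbols came from the platform annotation, updated through RefSeq gene IDs: 20826 probe sets had 1 symbol (20758 matched by gene ID), 436 several and 9780 none. The 6323 probe sets with a range above 0.01 log2 were fitted with limma 3.58.1 in R 4.3.3 (lmFit, eBayes with an intensity trend), L. brevis minus control, without a replicate block, with Benjamini-Hochberg adjustment over all 6323 and a threshold of 0.05. The fit was also run on simulated data with 200 shifted probe sets. Their noise was independent between probe sets, without array-wide differences such as the GAPDH signal, so the run says nothing about those. The symbol rule for the members, and the lists, were chosen with earlier results of these data known.

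A gene is given by its varying probe set with the highest mean. Named members are the 2 higher and 2 lower with the smallest p in each complex, all Sdh genes, isoform pairs and Atp5if1, and in each list the 1 higher and 1 lower gene with the smallest p. Cell type lists are given as summed levels. Other genes were named after their values were seen. Alternatives were other filters, normalizations, covariates and array weights, and leaving out each rat.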

Additional observations from a re-analysis of the deposited data

Results flagged for a closer look

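In groups of 4 rats, 5 values lay far from the other 3, among 94 groups looked at; chance gives about 1 in 20. Casq1, a calcium-binding protein of muscle, was highest in L. brevis 2 (6.45 log2), and so was Myl3, a slow muscle myosin light chain (7.72), the rat with the high skeletal muscle markers. Coa5 (9.50) and Suclg2 (11.08) were lowest in L. brevis 1, below the other 3 L. brevis rats. Cox17 was lowest in control 4 (9.19), below the other 3 control rats.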

How the results depend on the processing

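Of the 24 named oxidative phosphorylation genes, 16 kept their sign in all 19 alternatives. The remaining 8 changed sign as follows, and the cause was not tested. With the GAPDH covariate the differences were 0.40 for Ndufaf4, -0.020 for Sdhc, 0.076 for Uqcrc1, -0.049 for Cox8a, -0.025 for Ndufa4, 0.055 for Cox7a2l and 0.035 for Atp5f1d. With the beta-actin covariate, chosen after seeing the data like the fits on fewer rats named next, they were 0.35 for Ndufaf4, 0.0046 for Uqcrc1, -0.040 for Cox8a, 0.076 for Cox7a2l and 0.023 for Atp5f1d. Between L. brevis 1 and 2 and control 2 and 4 they were 0.36 for Ndufaf4, -0.048 for Cox8a, -0.031 for Ndufa4 and 0.022 for Cox7a2l, and without L. brevis 3 and 4 they were 0.29 for Ndufaf4 and -0.021 for Cox8a. Quantile normalization gave -0.040 for Ndufa4 and -0.042 for Cox6b1, median centring 0.0088 for Cox7a2l and 0.018 for Atp5f1d, and array weights 0.0091 for Cox7a2l. Leaving out 1 rat at a time gave -0.36 to 0.058 for Ndufaf4, -0.054 to 0.012 for Cox7a2l (0.0116 without L. brevis 4 or control 1) and -0.084 to 0.047 for Atp5f1d (0.015 without L. brevis 2).

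Members called ranged over 0 to 10 higher and 0 to 2 lower when 1 rat was left out, with 13 higher and 4 lower under array weights. Over all varying probe sets these settings gave 0 to 542 higher and 0 to 604 lower, with 759 and 802 under array weights. The fit on all probe sets called 1 varying probe set higher. The 4 called lower became 1 with a range above 0.1 log2 and 0 with median centring, the replicate block, either covariate or either fit on fewer rats. At an unadjusted p under 0.05 the higher members numbered 1 with the GAPDH covariate (2.33%, against 3.50% of all varying probe sets) and 2 with beta-actin (4.65%, against 3.92%). They numbered 0 between L. brevis 1 and 2 and control 2 and 4 (2 rats per diet, against 2.21%) and 5 without L. brevis 3 and 4 (11.6%, against 3.73%). Without 1 rat they numbered 6 to 16 (14.0% to 37.2%, against 6.01% to 16.4%). The lower ones numbered 4 under quantile normalization (9.30%, against 13.8% of all), 1 under median centring (2.33%, against 11.4%) and 1 with the replicate block (2.33%, against 17.1%). They numbered 7 under array weights (16.3%, against 22.5%). With the GAPDH and beta-actin covariates they numbered 0 (against 4.37% and 4.93%). They also numbered 0 between the 4 middle arrays (3.50%) and without L. brevis 3 and 4 (5.91%). Without 1 rat they numbered 1 to 7 (2.33% to 16.3%, against 9.03% to 20.6%). Members whose diets did not overlap numbered 8 higher under median centring, 2 lower under quantile normalization, and 5 to 15 higher and 0 to 6 lower without 1 rat. Over all varying probe sets the shares that did not overlap moved too. They were 5.61% higher under median centring and 7.10% lower under quantile normalization. Leaving out 1 rat at a time gave 4.67% to 15.3% higher (members 11.6% to 34.9%) and 7.92% to 20.3% lower (members 0% to 14.0%). Without L. brevis 1, where 15 members (34.9%) lay above and 6 (14.0%) below, they were 15.3% and 20.3%. The counts were not recounted for fits that leave the values as they are or for those on fewer rats.

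The median of complex I was -0.022 and -0.044 with the GAPDH and beta-actin covariates, and 0.0002 to 0.085 without 1 rat. That of complex II was 0.098, 0.16 and 0.16 with the covariates and between the 4 middle arrays, and 0.41 to 0.58 without 1 rat. For complex IV it was -0.027 under quantile normalization, -0.011 between the 4 middle arrays, 0.0073 without L. brevis 3 and 4, and 0.036 to 0.086 without 1 rat. For complex V it was 0.030, 0.071 and 0.050 with the covariates and between the 4 middle arrays, and 0.21 to 0.36 without 1 rat, and for complex III it was 0.14 with either covariate and 0.13 to 0.20 without 1 rat. Under quantile normalization the medians of complexes I, II, III and V were 0.0042, 0.41, 0.066 and 0.20.

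Same-numbered rats of both diets deviated together with correlations of 0.078 to 0.38, above 0.1 in 3 of 4 pairs, and 3 of 4 L. brevis rats correlated best with their own number. This is a hint from the data, not the design, and since 1 pair is not above 0.1 the numbers were not taken to pair the rats. With the replicate block 0 members were called in either direction, and by unadjusted p 14.1% of all varying probe sets lay higher and 17.1% lay lower, against 10.7% and 13.8% without it. For members the block gave 13 higher and 1 lower.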

Other observations

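Sqor, which passes electrons from sulfide to ubiquinone and was chosen after its values were seen, had 9.53, 11.25, 10.93 and 10.92 log2 in L. brevis rats 1 to 4, against 8.98, 6.88, 7.60 and 11.01 in control rats 1 to 4. The controls spanned far more than the L. brevis rats, and control 4 lay among them. The difference was 2.04 (SE 0.89, limma adjusted p = 0.209).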
